A study of Mus musculus with 44 samples.

Results

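Fibroblast growth factor (FGF) receptors, skeletal FGF ligands and Sprouty genes were followed through the skeletal stem cell lineage of the mouse growth plate. The 10 genes, taken by symbol from the count table, were Fgfr1, Fgfr2, Fgfr3, Fgfrl1, Fgf2, Fgf7, Fgf18, Spry1, Spry2 and Spry4, and all 10 were found among its 46831 genes. Fgfr3 and Fgfrl1 mRNA was highest in the 3 stem and progenitor populations. Fgfr1, Fgf18, Fgf7 and Spry4 mRNA was highest downstream of them. Spry2 and Fgf2 mRNA was the most enriched by an antibody against N6-methyladenosine (m6A). In the libraries labelled Mettl3cko, Fgfr3 mRNA was lower and Spry2 mRNA was higher than in WT.

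FGF ligands bind receptor tyrosine kinases on the cell surface with the help of heparan sulfate chains, and the activated receptor signals through adaptor proteins and MAP kinases. Sprouty proteins are induced by this signal and restrain it. In the growth plate, FGFR3 restrains chondrocyte proliferation and activating FGFR3 mutations cause achondroplasia, FGF18 is a ligand made around cartilage and bone, and FGFR1 and FGFR2 act in mesenchyme and the osteoblast lineage. FGFRL1 is a receptor-like protein without a kinase domain, FGF7 is a mesenchymal ligand for the epithelial form of FGFR2, and FGF2 is a broadly acting ligand stored in the matrix. m6A is a methyl mark laid on mRNA in the nucleus by a complex whose catalytic subunit is METTL3, often at the sequence GGACT.

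All groups were sorted cells from growth-plate ends of long bones of C57Bl6 mice at postnatal day 3. WT cells were sorted into SSC (skeletal stem cells), pBCSP (labelled pre-BCSP) and BCSP (bone, cartilage and stromal progenitors), called stem and progenitor cells below. They were also sorted into PCP (pro-chondrogenic progenitors), THY, BLSP (B-cell lymphocyte stromal progenitors), 6C3 and HEC, called downstream cells. The study calls its control mice with floxed Mettl3 (Mettl3 fl/fl) WT. It does not state whether all 8 WT populations came from them. Cells labelled Mettl3cko (Mettl3 fl/fl with Col2a1-Cre, a Cre driven by a cartilage collagen promoter) were sorted into SSC, pBCSP and BCSP. Each of the 22 conditions had 2 replicates, made of either whole RNA before precipitation (input, read as mRNA level) or RNA pulled down with the m6A antibody (IP). The sorting gates used surface markers, so a population is the content of a gate, and Col2a1-Cre can act only in cells that have expressed Col2a1.

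The 44 libraries held 19795666 to 44046651 counts (WT input), 16480027 to 35856651 (WT IP), 30050178 to 35325482 (Mettl3cko input) and 22056571 to 33126857 (Mettl3cko IP). Cartilage and bone cell markers were found in every gate and did not follow the gate names throughout. Summed chondrocyte markers (7 genes) were 90315 to 108450 CPM (counts scaled to a library of 1e+06) in stem and progenitor input and 8003.8 to 99187 downstream. Summed osteoblast markers (7 genes) were 7905.1 to 15465 CPM and 66922 to 144120 CPM in the same order, a sum in which Col1a1 alone was lower in stem and progenitor cells. PCP, named pro-chondrogenic, held 17127 and 20519 CPM of the chondrocyte sum and 105030 and 90715 CPM of the osteoblast sum. HEC held 78402 and 99187 CPM of the chondrocyte sum. Summed blood markers (8 genes) reached at most 19.8 CPM in WT input. Downstream, summed erythroid markers (5 genes) reached 106 CPM, endothelial markers (5 genes) 86.2 CPM in PCP, osteoclast markers (3 genes) 385 CPM and Schwann cell markers (3 genes) 701 CPM in BLSP, against at most 4.45, 21.0, 136 and 10.7 CPM in stem and progenitor input. In bulk libraries fewer cells of a type and less RNA per cell cannot be told apart, and the p-values measure the spread of 2 replicates per condition, described as independent experiments.

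Mettl3, the targeted gene, had no called decrease of mRNA in the libraries labelled Mettl3cko. Its input level was 15.5 and 15.6 CPM in WT SSC against 16.8 and 18.8 CPM in SSC labelled Mettl3cko. In pBCSP it was 12.2 and 16.3 against 22.4 and 23.1 CPM, and in BCSP 18.3 and 19.9 against 16.5 and 18 CPM. It was thus above WT in SSC and pBCSP and slightly below it in BCSP. The mean difference over the 3 populations was +0.25 on the log2 scale (edgeR, adjusted p = 0.362). Whole-gene counts also hold exons outside a deletion and were not resolved by exon. In the IP libraries, Mettl3 was 5.30 and 1.04 CPM in pBCSP labelled Mettl3cko against 18.3 and 18.1 CPM in WT, and its ratio of IP to input passed before adjustment there (log2 difference -3.26, adjusted p = 0.321). In SSC Mettl3 IP was higher than in WT, at log2 CPM of 3.96 and 4.62 against 2.75 and 3.07. The ratio differed by +1.26 in SSC and -0.77 in BCSP, neither passing before adjustment. Its mean difference over the 3 populations was -0.93 (edgeR, adjusted p = 0.47). Over all genes that ratio had a median log2 difference of -0.39, with 672 genes called lower and 131 higher. Every direction given for these libraries rests on their labels.

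The GGACT sequence was counted in the longest complete coding transcript of each gene (GRCm38 annotation), on the transcript strand. The transcripts lie at chr8:25518772-25575714 (Fgfr1, plus strand), chr7:130162451-130266263 (Fgfr2, minus), chr5:33721724-33737068 (Fgfr3, plus), chr5:108694502-108706896 (Fgfrl1, plus), chr3:37348653-37410108 (Fgf2, plus), chr2:126034658-126091185 (Fgf7, plus), chr11:33117430-33147400 (Fgf18, minus), chr3:37640080-37644598 (Spry1, plus) and chr14:105891947-105896819 (Spry2, minus). Of 21732 transcripts searched, 87.7% held at least 1 and 36.5% held at least 1 within 200 bases of the stop codon, with a median of 1.01 per kb. Spry2 held 7 (3.35 per kb), Fgf18 held 3 (2.76 per kb), Spry1 held 6 (2.16 per kb) and Fgfr1 held 8 (1.59 per kb). Fgfrl1 (3), Fgfr3 (5), Fgfr2 (5) and Fgf2 (6) lay between 1.00 and 1.29 per kb. Fgf7 held 2 (0.749 per kb) and Spry4 held 2 (0.421 per kb). The sites below are a selection, shown for Spry2, the most m6A-enriched gene, for Fgfr1 and Fgf18, whose enrichment differed most along the lineage, and for Fgf7, which was not called enriched. Capitals mark GGACT and each line reads 5′ to 3′ along the mRNA. The positions are Spry2 chr14:105893202-105893222, chr14:105893148-105893168 and chr14:105893092-105893112 (minus strand, coding), Fgf18 chr11:33134348-33134368 (coding), chr11:33117579-33117599 and chr11:33117495-33117515 (minus strand, both in the 3′ UTR), Fgfr1 chr8:25573820-25573840 and chr8:25573896-25573916 (plus strand, coding) and Fgf7 chr2:126089609-126089629 and chr2:126089705-126089725 (plus strand, 3′ UTR), in the order of the lines. The number in each line is the position of the A of GGACT counted from the last base of the stop codon.
Spry2 at -409: aggtgtgaGGACTgcggcaag
Spry2 at -355: ctgccgtcGGACTggatctgt
Spry2 at -299: tgactatgGGACTtgtgtgtg
Fgf18 at -529: gagaatgtGGACTtccgcatc
Fgf18 at 176: atgacaaaGGACTcacacaag
Fgf18 at 260: ccagaggaGGACTtgaacgag
Fgfr1 at -91: tcaggggaGGACTctgtcttc
Fgfr1 at -15: ccaacagtGGACTcaaacggc
Fgf7 at 58: tttccagtGGACTtttcttct
Fgf7 at 154: atcaagctGGACTtgcgcatt

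The 3 coding Spry2 sites lay close together and the 2 of 8 Fgfr1 sites shown were those within 200 bases of the stop codon. A match of these letters is a description of the transcript and not a measured m6A site, since counts per gene carry no position within the transcript.

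The first question was whether mRNA of these genes differed among the 8 WT populations. It did for 9 of the 10 genes (edgeR quasi-likelihood test, adjusted p under 0.05), where 40.1% of the 20060 genes tested passed. Spry2 was the exception (adjusted p = 0.162). Between stem and progenitor cells and downstream cells, 3 genes were higher and 4 lower, where 23.1% of all genes were higher and 28.3% lower. The median log2 difference was -0.24 for the 10 genes and -0.11 for all genes tested.

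Among the receptors, Fgfr3 had the steepest difference. Its input level was lowest at 408 CPM, with a median of 473 and a highest value of 506 CPM over the 6 stem and progenitor libraries, against 17.6, 41.6 and 87.9 CPM over the 10 downstream libraries. The 2 groups did not overlap. All 6 stem and progenitor libraries stood above all 10 downstream libraries in 8.2% of the genes tested, and below them in 8.33%. The log2 difference was 3.35 (SE 0.157, adjusted p = 1.75e-10). Within the stem and progenitor cells the means were alike, at 475 ± 9.15 in BCSP, 466 ± 55.8 in pBCSP and 443 ± 49.7 CPM in SSC (SD, n = 2). HEC followed at 84.0 ± 5.52 CPM and THY was lowest at 20.7 ± 4.38 CPM. Per kb of exon, Fgfr3 was the most abundant of the 4 receptor genes in each stem and progenitor population, at 61.9 to 66.4 CPM per kb, and Fgfr1 the most abundant in each downstream one, at 46.9 to 59.9 CPM per kb.

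Fgfrl1, the receptor-like gene, was also higher in stem and progenitor cells. Its input levels were 72.6, 102 and 124 CPM (lowest, median, highest) against 14.8, 23.2 and 62.1 CPM downstream, without overlap. The log2 difference was 1.72 (SE 0.105, adjusted p = 2.91e-09). Unlike Fgfr3, its level was graded. BCSP (121 ± 4.37), SSC (102 ± 12.1), pBCSP (74.8 ± 3.13), HEC (61.8 ± 0.434) and 6C3 (46.1 ± 0.409 CPM) followed each other, and a step separated 6C3 from BLSP (22.6 ± 5.14), PCP and THY.

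Fgfr1 had the opposite pattern. It ran from 220 through 271 to 302 CPM in stem and progenitor input and from 421 through 539 to 652 CPM downstream, again without overlap. The log2 difference was -1.04 (SE 0.115, adjusted p = 1.7e-06). HEC (592 ± 56.7 CPM) and PCP (581 ± 15.5 CPM) were highest and BCSP (221 ± 1.74 CPM) was lowest.

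Fgfr2 varied among populations without dividing the lineage. It was 115, 192 and 242 CPM in stem and progenitor cells against 113, 247 and 337 CPM downstream, and the groups overlapped. The log2 difference of -0.30 (95% interval -0.54 to -0.06) missed the threshold (adjusted p = 0.0541), and passed it with DESeq2 (0.0404) and with replicate number as a block (0.0485). PCP (308 ± 39.7 CPM) and THY (119 ± 8.73 CPM) were its extremes.

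Among the ligands, Fgf18 and Fgf7 were both higher downstream, each above SSC in PCP, THY, BLSP and 6C3, and they parted in HEC. Fgf18 input was 4.02, 8.13 and 9.07 CPM in stem and progenitor cells against 9.66, 41.0 and 61.8 CPM downstream, with no overlap and a log2 difference of -2.39 (SE 0.289, adjusted p = 4.37e-06). It was highest in HEC (57.7 ± 0.818 CPM), and the 2 replicates of PCP (9.66 and 38.2 CPM) and of 6C3 (25.9 and 61.8 CPM) stood apart from each other.

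Fgf7 input was 0.796, 1.80 and 2.62 CPM in stem and progenitor cells against 2.45, 11.5 and 21.9 CPM downstream. The log2 difference was -2.44 (SE 0.234, adjusted p = 3.77e-07). The groups overlapped because HEC (2.58 and 2.45 CPM), where Fgf18 was highest, had as little Fgf7 as BCSP. PCP had the most Fgf7, at 21.0 ± 1.26 CPM.

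Fgf2 was higher in stem and progenitor cells on average, at 6.44, 15.7 and 23.3 CPM against 2.69, 6.35 and 17.7 CPM, with overlap. Its log2 difference of 0.80 (SE 0.237, adjusted p = 0.00975) was 0.59 (adjusted p = 0.0564) without SSC WT input replicate 2. BCSP (20.6 ± 0.887 CPM) and HEC (16.6 ± 1.61 CPM) were high and pBCSP (7.13 ± 0.979 CPM) was low, so the level did not follow the split of the lineage. Fgf2 shares 640 exon bases with the antisense gene Nudt6, and these unstranded reads cannot be assigned to one of them. The same holds for overlaps of Fgfr3 with G630022F23Rik (998 bases), Spry1 with Gm42922 (710) and Fgfr1 with Gm16159 (164). Fgfr2 shares 314 exon bases with Ctbp2 and Fgf2 shares 255 with Gm43439, each on the same strand, where strand would not separate them.

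**Figure D1:**
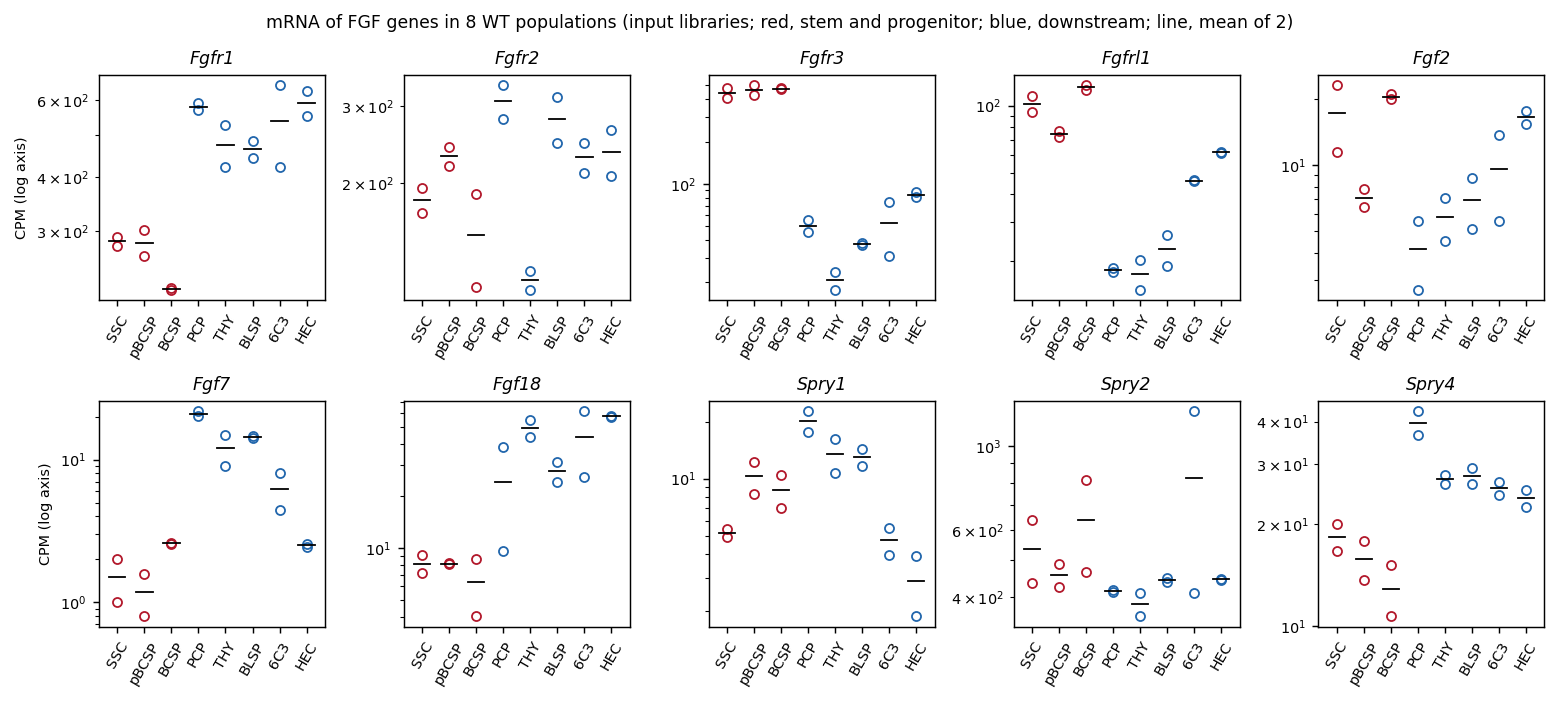
Input mRNA of the FGF genes in each WT population, in CPM on a log axis, with 1 point per library and a bar at the mean of 2. Fgfr3 lies between 408 and 506 CPM in all SSC, pBCSP and BCSP libraries and at or below 87.9 CPM in all others, and Fgfr1 and Fgf18 show the opposite division.

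The Sprouty genes, feedback inhibitors of FGF signalling, did not move as 1 group. Spry4 was lower in stem and progenitor cells, by -0.90 on the log2 scale (SE 0.122, adjusted p = 1.56e-05), from 18.3 ± 2.39 in SSC and 12.9 ± 3.14 in BCSP to 39.7 ± 4.61 CPM in PCP, and its 6 stem and progenitor libraries lay below the 10 others. Spry1 differed among the 8 populations (adjusted p = 0.000306), with 20.2 ± 3.62 CPM in PCP and 2.89 ± 1.44 CPM in HEC. It was not called between the 2 parts of the lineage (-0.19, 95% interval -0.57 to 0.20). Spry2 was by far the most abundant per length of the 10 genes, at 183 to 394 CPM per kb, and had no called difference (0.14, 95% interval -0.23 to 0.50). One 6C3 library held 1235 CPM of Spry2 and the other 410 CPM.

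Pairs of populations were called apart at adjusted p under 0.05, corrected over all genes within each pair. Over all pairs of the 8 populations, 121 of 280 combinations of gene and pair were apart (43.2%). Of the combinations of all genes, 15.1% were. In the order of the 8 population means, 5 of the 70 pairs of neighbours were apart, a count that was not made for all genes. They were SSC above HEC for Fgfr3 (adjusted p = 7.9e-05), 6C3 above BLSP for Fgfrl1 (0.00732), BLSP above SSC for Fgfr1 (0.0195), PCP above pBCSP for Fgf18 (0.032) and 6C3 above BCSP for Fgf7 (0.0322). For Fgfr1, Fgfr3 and Fgf18 that step fell between stem and progenitor cells and the rest. All other neighbours, and all those of Fgfr2, Fgf2 and the 3 Sprouty genes, were not separated beyond their spread. The count was 3 without BLSP WT input replicate 2 and 9 without 6C3 WT input replicate 2.

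The same split of populations moved with cell type markers. All 7 chondrocyte markers were higher in stem and progenitor cells, and so were 6 of the 7 osteoblast markers, by log2 differences from 0.46 (Runx2) to 2.31 (Bglap). The seventh, Col1a1, the main collagen of bone, was lower (-3.66). Among hypertrophic markers, Ihh (6.20) and Col10a1 (5.60) were higher and Mmp13 (-1.97) was lower. Stromal Kitl (-3.98), Dpt (-3.26), Cxcl12 (-3.10), Pdgfra (-1.24) and Lepr (-0.92) were lower, and Dcn (0.16) was not called. Joint and tendon markers split, with Prg4 (1.71) and Gdf5 (0.99) higher and Scx (-4.10) and Tnmd (-3.38) lower. Summed muscle markers were 21.5 to 52.4 CPM in stem and progenitor input against 5.58 to 14.7 CPM downstream. Erythroid, endothelial, osteoclast and Schwann cell markers were given above. The part of any of these cell types in the differences of Fgfr3, Fgfrl1, Fgfr1, Fgf18, Fgf7, Fgf2 and Spry4 was not tested.

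The genes whose mean levels followed these patterns most closely over the 8 populations, among 6728 genes compared, were Chchd4 (r = 0.992), Impa2 (0.990) and Uqcc1 (0.990) for Fgfr3, and Adipor2 (0.987), Nr1d1 (0.987) and Gpatch2l (0.984) for Fgfr1. For Fgf18 they were Hsp90b1 (0.990), Tank (0.989) and Endod1 (0.988), and for Fgf7 Tmpo (0.990), Mmp23 (0.977) and Gpc1 (0.974), a heparan sulfate proteoglycan of the cell surface. For Fgfr2 they were Sh3bp5 (0.928), Map3k11 (0.915) and Cirbp (0.911). These Pearson correlations describe 8 means that share their libraries.

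Other genes of the pathway were read from lists of 74 genes, of which 69 were tested and 17 were higher and 23 lower in stem and progenitor cells, shares near those of all genes (23.1% and 28.3%). Of 16 other ligands, 2 were higher and 7 lower, with a median log2 difference of -0.80. Fgf10 (-4.29, adjusted p = 1.19e-05), Fgf9 (-3.49, 0.000119) and Fgf11 (-4.35, 0.00193) were lower and scarce everywhere, at most 4.61 CPM in WT input. Fgf23, the phosphate-regulating hormone of bone, was at 0 counts in all 6 stem and progenitor input libraries and reached 2.02 CPM downstream.

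Of 20 co-receptors and binding proteins, 9 were higher and 6 lower (median 0.24). Fgfbp1, a carrier that releases FGFs from the matrix, was higher by 3.30 (adjusted p = 9.68e-05) and Flrt3, a membrane protein that binds FGF receptors, by 1.83 (1.96e-08). Gpc1 was lower (-2.37, 3.83e-07), as was the cadherin Cdh2 (-2.52, 0.000558). Of 21 adaptors and kinases, 3 were higher and 5 lower (median -0.15). The small GTPase genes Hras (-1.35, adjusted p = 0.000185) and Nras (-1.26, 3.63e-06) were lower, and the docking protein gene Gab1 was higher (0.94, 5.74e-06).

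Of 12 response genes and feedback inhibitors, 3 were higher and 5 lower (median -0.17). Dusp4, a MAP kinase phosphatase, differed by -2.34 (3.93e-09), Il17rd, an inhibitor of FGF receptor signalling, by -2.13 (0.000171), the transcription factor gene Etv4 by -1.38 (2.2e-05) and Myc by +0.96 (4.24e-07).

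The second question was how much of each mRNA the m6A antibody recovered. Enrichment was the log2 ratio of IP to input, centred so that the average gene lies near 0, so a negative value means less recovery than that of most genes and not absence of m6A. Averaged over the 8 WT populations, 5 of the 10 genes were higher in IP and 4 lower, where 17.2% and 25.2% of 25365 genes tested were. Spry2 led with a mean log2 ratio of 1.88 (SE 0.113, adjusted p = 2.77e-14), followed by Fgf2 (1.49, 8.71e-10), Spry1 (0.67, 0.00189), Fgf18 (0.65, 0.0011) and Fgfrl1 (0.43, 8.19e-05). The 3 kinase receptors were lower, Fgfr3 at -1.10 (5.93e-09), Fgfr2 at -0.75 (1.21e-07) and Fgfr1 at -0.72 (5.62e-09). Spry4 (-0.36, 0.0158) lost its call with DESeq2 (0.0923) and with DESeq2 size factors (0.145), and Fgf7 (-0.36, 95% interval -0.78 to 0.06) was not called. Size factors moved the median of all genes by 0.12 in this comparison.

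By the rule that calls a transcript m6A-tagged in 1 population (log2 ratio above 1, p under 0.05), 19 of 80 combinations of gene and population passed. Of the 10 genes, 3 passed in SSC (10.4% of all genes), 3 in pBCSP (12%) and 2 in BCSP (6.67%). Downstream, PCP had 2 (10.6%), THY 3 (12.4%), BLSP 2 (12.4%), 6C3 only 1 (14.5%) and HEC 3 (13.5%). Spry2 was tagged in every population except 6C3, where its log2 ratio was 0.98 (95% interval 0.05 to 1.91), and Fgf2 in every one except BCSP, where it was 0.99. Fgf18 was tagged in SSC (2.03), pBCSP (1.88) and BCSP (1.85) and in no downstream population. Spry1 was tagged in THY (1.13) and HEC (1.94). No receptor gene was tagged in any population, and whether tagging differs between populations is tested next.

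**Figure D2:**
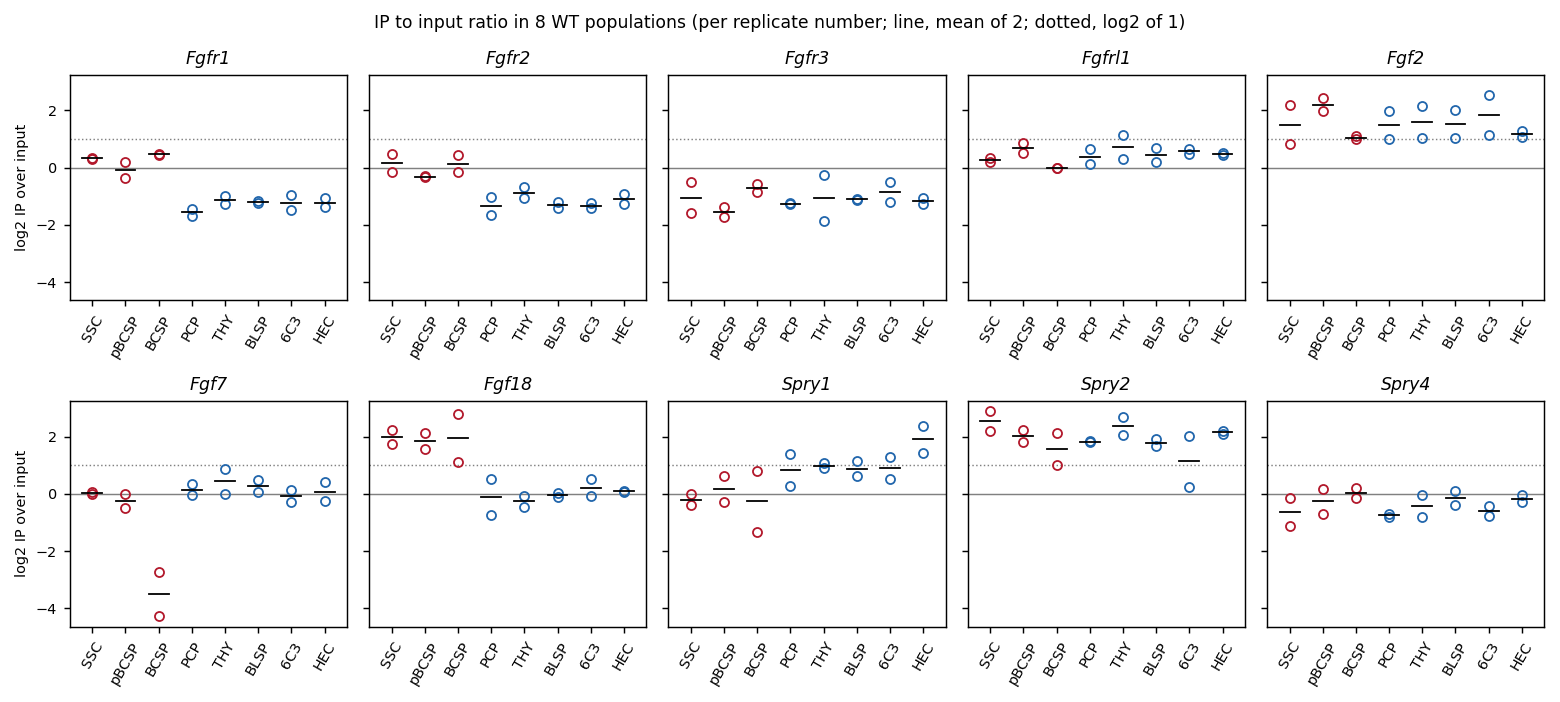
Log2 ratio of IP to input for the FGF genes in each WT population, 1 point per replicate pair and a bar at the mean, with a line at 0. Fgfr1, Fgfr2 and Fgf18 lie higher in SSC, pBCSP and BCSP than in all 5 downstream populations, and Spry2 and Fgf2 lie above 0 throughout.

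The third question was whether this ratio differed among populations. Across all 8, Fgfr1 was the only one of the 10 genes called (adjusted p = 0.000706), where 0.485% of genes were. Fgfr2 (0.0595) and Fgf18 (0.0618) were next. With DESeq2 4 were called (also Fgfr2, Fgf7 and Fgf18), and with replicate number as a block 4 (also Fgfr2, Fgf18 and Spry2). Of stem and progenitor cells against downstream cells, the ratio was higher for 3 genes (3.06% of all genes) and lower for 0 (1.77%).

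Fgf18 had the largest of the 3 differences. Its log2 ratio was 1.11, 1.93 and 2.79 (lowest, median, highest) over 6 stem and progenitor pairs of libraries against -0.74, -0.01 and 0.52 over 10 downstream pairs. The difference was 2.05 (SE 0.331, adjusted p = 0.000328). Fgfr1 ran from -0.36 through 0.32 to 0.47 against -1.68, -1.26 and -0.97, a difference of 1.57 (SE 0.162, adjusted p = 1.43e-06). Fgfr2 ran from -0.35 through -0.15 to 0.46 against -1.67, -1.22 and -0.69, a difference of 1.19 (SE 0.199, adjusted p = 0.000459). In these 3 genes all 6 values stood above all 10, which held for 0.938% of the genes tested, and the reverse for 0.631%.

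The ratio and the mRNA comparison share the input libraries, so the IP levels are given as well. Fgfr1 IP was 206 to 356 CPM in stem and progenitor cells and 178 to 262 CPM downstream, where its input was higher. Fgf18 IP was 18.7 to 35.2 CPM against 13.9 to 61.8 CPM. Fgfr2 IP was 155 to 234 CPM against 53.8 to 163 CPM, where input overlapped as well. The IP ranges of the 2 groups met at their edges for Fgfr2, overlapped more for Fgfr1, and spread most widely downstream for Fgf18.

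Fgf7 (-1.41, adjusted p = 0.0711) and Spry1 (-1.14, 0.064) had lower ratios in stem and progenitor cells without passing the threshold. Both passed with DESeq2, size factors, no filter or the replicate block, which gave 5 genes each. Fgf7 in BCSP rested on IP counts of 10 and 2. The ratio of Fgfr3, whose mRNA differed most, had a difference of 0.06 (95% interval -0.42 to 0.54, and -0.11 with size factors), that of Fgfrl1 -0.17 (-0.50 to 0.17), of Fgf2 0.11 (-0.47 to 0.70, and -0.05 with size factors), of Spry2 0.25 (-0.19 to 0.70) and of Spry4 0.20 (-0.29 to 0.70). Among the other pathway genes, Gab1 and Sdc3 were called across the 8 populations.

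The fourth question was how mRNA differed between libraries labelled Mettl3cko and WT in SSC, pBCSP and BCSP. Averaged over the 3 populations, Spry2 was higher and Fgfr3 and Fgfrl1 were lower, where 3.75% of 18655 genes were higher and 2.72% lower. The other 7 genes did not pass.

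Fgfr3, whose mRNA marked stem and progenitor cells in WT, was 478 and 408 CPM in WT SSC and 264 and 350 CPM in SSC labelled Mettl3cko. In pBCSP it was 506 and 427 against 181 and 274 CPM, and in BCSP 482 and 469 against 242 and 290 CPM. The libraries labelled Mettl3cko lay below both WT libraries in each population, as in 4.35% of all genes, and they stayed above the highest downstream WT library (87.9 CPM). The mean log2 difference was -0.79 (SE 0.133, adjusted p = 0.00681).

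Fgfrl1 was 93.6 and 111 against 93.8 and 61.8 CPM in SSC, 77.0 and 72.6 against 55.8 and 55.8 CPM in pBCSP, and 118 and 124 against 81.5 and 77.5 CPM in BCSP. The groups overlapped in SSC. The mean log2 difference was -0.47 (SE 0.126, adjusted p = 0.0486). This call was lost with size factors (0.0511) and in 11 of 12 fits that left out 1 library, with adjusted p of up to 0.158, and was kept without SSC Mettl3cko input replicate 1.

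Spry2 was 636 and 435 CPM in WT SSC against 1294 and 1546 CPM in SSC labelled Mettl3cko. In pBCSP it was 424 and 488 against 1330 and 726 CPM, and in BCSP 813 and 465 against 909 and 1247 CPM. The libraries labelled Mettl3cko lay above WT in each population, as in 4.15% of all genes. The mean log2 difference was 1.12 (SE 0.190, adjusted p = 0.00681).

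**Figure D3:**
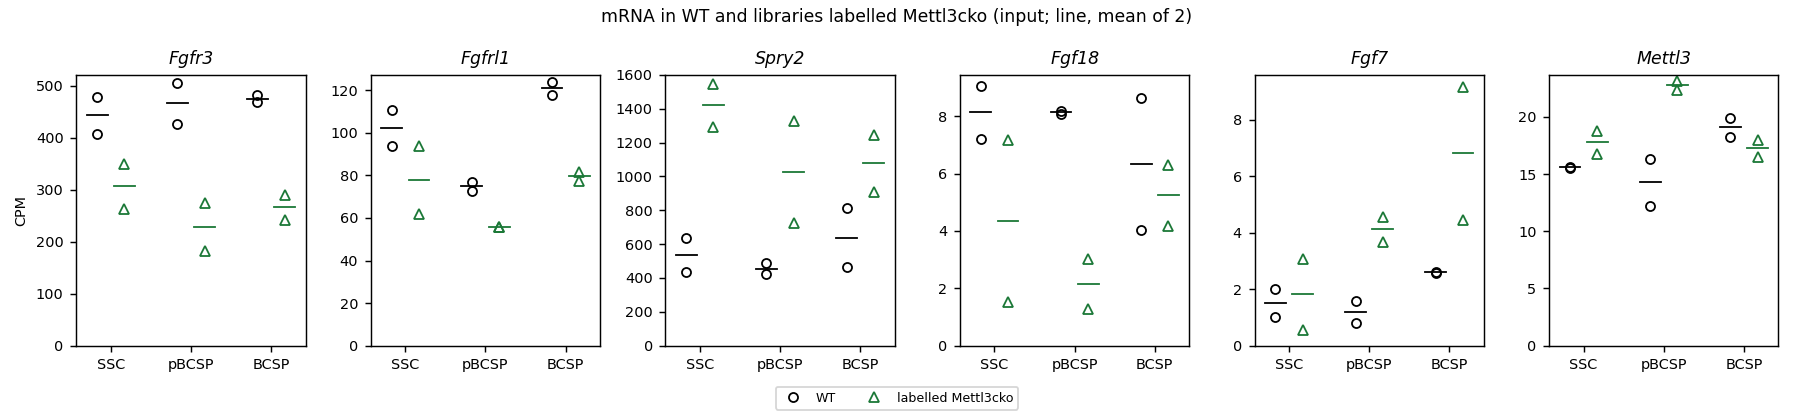
Input mRNA (CPM, linear axis from 0) of Fgfr3, Fgfrl1, Spry2, Fgf18, Fgf7 and Mettl3 in WT and labelled Mettl3cko SSC, pBCSP and BCSP, with 1 point per library and a bar at the mean. Fgfr3 points of the labelled Mettl3cko libraries lie below and Spry2 points above the WT points in all 3 populations, and Mettl3 points do not lie below WT in SSC or pBCSP.

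For each population alone, the study's rule for a differential mRNA (absolute log2 difference above 0.5, p under 0.05) passed 11 of 30 combinations of gene and population. They were 2 of 10 genes in SSC (14% of all genes), 5 in pBCSP (8.36%) and 4 in BCSP (12.9%), and 0 of the 30 passed at an adjusted p under 0.05. Fgfr3 passed in all 3 (-0.53, -1.01 and -0.85 in SSC, pBCSP and BCSP) and so did Spry2 (1.41, 1.20 and 0.75). Fgf18 (-1.90) and Fgfr2 (-0.66) passed in pBCSP, Fgfrl1 in BCSP (-0.61) and Fgf7 in pBCSP (1.80) and BCSP (1.38). Without pBCSP WT input replicate 1 the count was 6.

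The ligands were less abundant than the receptors here and had wide intervals. Fgf18 was 8.20 and 8.07 CPM in WT pBCSP against 1.27 and 3.03 CPM, and the labelled Mettl3cko values of SSC (7.18 and 1.52 CPM) and BCSP (4.19 and 6.29 CPM) overlapped or neared WT. Its mean difference of -1.02 (95% interval -1.80 to -0.25) did not pass (adjusted p = 0.15). Fgf7 was at most 9.17 CPM, with a mean difference of 1.15 (0.26 to 2.05, adjusted p = 0.161). Fgf2 (0.16, -0.34 to 0.65), Fgfr1 (0.02, -0.17 to 0.22), Fgfr2 (-0.15, -0.47 to 0.16), Spry1 (-0.64, -1.44 to 0.16) and Spry4 (-0.21, -0.59 to 0.18) were not called. No gene of the 10, and 0% of all genes, had a difference that itself differed among SSC, pBCSP and BCSP by edgeR at adjusted p under 0.05. Of all 18655 genes 839 had an unadjusted p under 0.05, and DESeq2 called 41.

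Some markers moved with the label too. Hemoglobin genes were higher (Hba-a1 by 3.59 and Hbb-bs by 3.92 on the log2 scale), with summed erythroid markers of 7.75 to 34.7 CPM against 0.559 to 4.45 CPM in WT stem and progenitor input. Prg4, a lubricant gene of joint surface cells, was lower (-1.92), with summed joint and tendon markers of 492 to 907 CPM against 1257 to 3367 CPM. Ihh, a signal of prehypertrophic chondrocytes, was higher (1.05) and the protease gene Ctsk was lower (-0.69). Other tested members of their marker lists were not called. These were Hbb-bt (2.55) and Alas2 (1.26), listed with Hba-a1 and Hbb-bs, and Scx (-1.93), Gdf5 (-0.66) and Tnmd (-0.04), listed with Prg4. Col10a1 (0.18) and Mmp13 (-0.88), listed with Ihh, and Acp5 (0.85), listed with Ctsk, were the rest. The 7 chondrocyte and 7 osteoblast markers gave 0 calls each. The part of these cells in the differences of Fgfr3, Fgfrl1 and Spry2 was not tested.

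Of 67 other pathway genes tested, 6 were higher and 1 lower in libraries labelled Mettl3cko, where 3.75% and 2.72% of all genes were. Dusp6, a phosphatase that silences ERK and is induced by FGF signalling, was higher (0.53, adjusted p = 0.0261), as were Myc (0.43, 0.0421), the signal transducer Stat3 (0.73, 0.0286), the FGF carrier Fgfbp3 (0.76, 0.0372), Flrt3 (0.62, 0.0341) and the proteoglycan Sdc1 (0.53, 0.0268). Etv1, a transcription factor gene induced by FGF in many tissues, was lower (-0.72, 0.039). None of the 15 other ligands tested was called (median log2 difference 0.16), and the medians of co-receptors (0.22), adaptors (0.02) and response genes (0.18) stood beside -0.05 for all genes.

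The fifth question was whether the IP to input ratio differed with the label. Averaged over the 3 populations 0 of the 10 genes were called by edgeR, where 0.643% of 20360 genes were higher and 3.3% lower, and the median of all genes was -0.39 on the log2 scale. Spry2 came closest, at -0.96 (SE 0.342, adjusted p = 0.129), and was the only one of the 10 with an unadjusted p under 0.05. DESeq2 called 0 as well, and without a filter on low counts 1 was called.

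**Figure D4:**
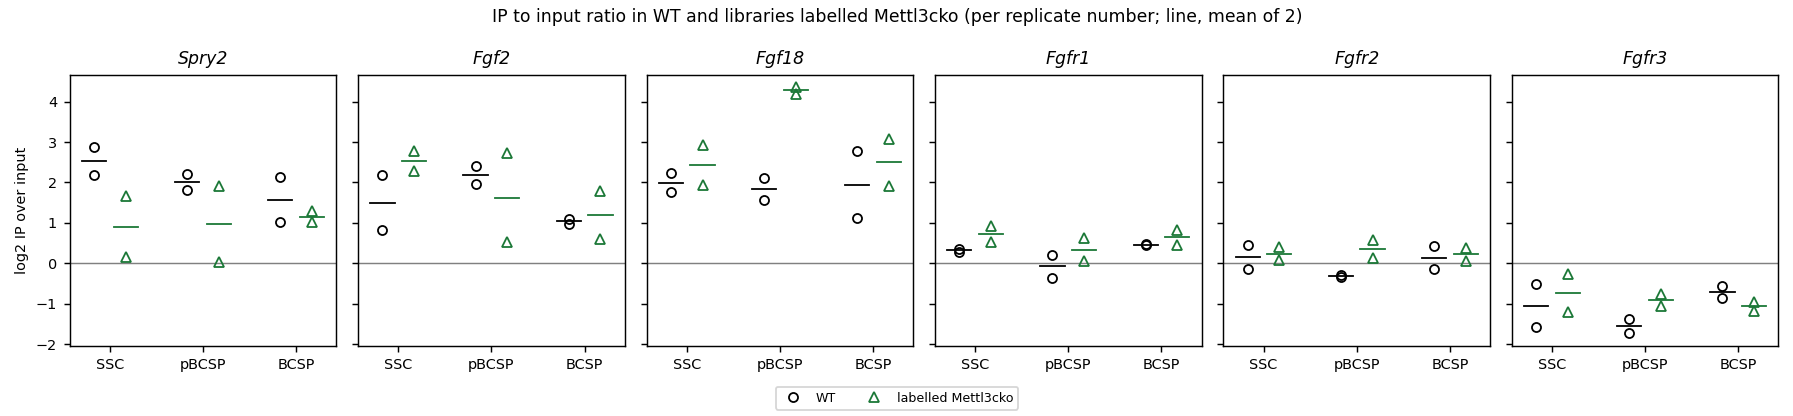
Log2 ratio of IP to input of Spry2, Fgf2, Fgf18, Fgfr1, Fgfr2 and Fgfr3 in WT and labelled Mettl3cko SSC, pBCSP and BCSP, with 1 point per replicate pair, a bar at the mean and a line at 0. Spry2 points of labelled Mettl3cko SSC (1.66 and 0.14) lie below WT (2.18 and 2.89), and those of Fgf18 in labelled Mettl3cko pBCSP lie above WT.

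In single populations, 3 of 30 combinations had p under 0.05, 2 in SSC (14.5% of all genes), 1 in pBCSP (11.9%) and 0 in BCSP (10.3%). None passed after adjustment. In SSC, WT had Spry2 ratios of 2.18 and 2.89, and libraries labelled Mettl3cko of 1.66 and 0.14 (difference -1.44, SE 0.562, adjusted p = 0.306). Its IP level was 2882 and 3221 CPM in WT against 4085 and 1706 CPM, while its input was higher. In pBCSP the Spry2 ratio was 1.82 and 2.22 against 0.02 and 1.91, and in BCSP 1.01 and 2.13 against 1.01 and 1.30, so that the replicates of pBCSP stood far apart.

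Fgf18 in pBCSP had the opposite sign (2.34, SE 0.875, adjusted p = 0.358). Its IP level was 24.5 and 35.2 CPM in WT and 27.5 and 56.5 CPM in libraries labelled Mettl3cko, and its input was lower. Fgf7 in SSC had 0 IP counts in both libraries labelled Mettl3cko, where 3 counts allow up to 0.154 and 0.117 CPM, against 2.03 and 1.07 CPM in WT IP. With both labelled libraries set at the floor of 3 counts, the WT mean (1.55 CPM) was 11.4-fold above their mean. This is a ratio of means and not a lower bound, and no separate test of it was run. The WT values rested on 39 and 29 counts. The ratio of IP to input had an adjusted p of 0.229, and its call before adjustment was lost with the replicate block. Fgf7 IP was also at 0 in replicate 1 of pBCSP and of BCSP labelled Mettl3cko, while replicate 2 held 63 and 221 counts, against 16 and 59 counts in WT pBCSP and 10 and 2 in WT BCSP. These floors cover counting error only. The intervals of the mean difference were -0.06 to 0.70 for Fgfr1, -0.18 to 0.73 for Fgfr2 and -0.32 to 0.65 for Fgfr3. Like all these ratios they are relative to other genes, since scaling largely takes out a change shared by most transcripts.

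Of the 67 other pathway genes, 3 had lower ratios and 0 higher, where 3.3% and 0.643% of all genes did. Nras was lower by a log2 difference of -1.15 (adjusted p = 0.0424), with IP of 75.6 to 240 CPM in libraries labelled Mettl3cko against 174 to 252 CPM in WT. Those IP ranges overlapped, and Nras input was 179 to 444 CPM against 143 to 187 CPM in the same order. Fgfbp1 (adjusted p = 0.00599) was at 0 IP counts in all 6 libraries labelled Mettl3cko. Its 6 WT IP libraries held 2 to 268 counts each, 905 in all. Fgf12 (0.0467) had 2 IP counts in all over the 6 libraries labelled Mettl3cko. Its 6 WT IP libraries held 0 to 98 counts each, 241 in all, so single WT libraries were near or at 0 too.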

How the data were processed

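Sorted cells of each condition gave IP and input libraries by a low-input m6A method (SLIM-seq), amplified without strand. Per the labels and methods, the authors trimmed reads (fastp 0.20.1), aligned them to GRCm38 (HISAT2 2.2.1) and deposited raw counts per gene (featureCounts 2.0.1). Further deposited tables held the authors' own comparisons (Mettl3 mutant against WT mRNA in SSC, and m6A-tagged differential genes) and were not used. From the counts, 128 entries named 1-Mar or 2-Mar, spreadsheet-altered names (at most 0.39% of a library), were left out. Groups came from sample titles, since the genotype field reads wild type throughout.

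Counts were tested with edgeR 4.0.16 (R 4.3.3, quasi-likelihood F, TMM, filterByExpr), with Benjamini-Hochberg adjustment over all genes. CPM used TMM factors over all 44 libraries, and log2 ratios a prior count of 2. SE was taken from the fold change and F. The 95% intervals used a normal multiplier of that SE, which is too small for so few libraries. They are therefore too narrow, and an interval that leaves out 0 is not a call. DESeq2 1.42.0, its size factors, no filter, a replicate block, a joint fit and 1 library left out (the joint ratio fits keep the dispersion trend of all libraries) were alternatives. On simulated counts, edgeR at adjusted p under 0.05 found 76 of 94 genes changed by a log2 difference of 2 in the stem against downstream comparison (19042 genes), 64 of 93 in the mean Mettl3cko mRNA comparison (17777 genes) and 0 of 96 in the Mettl3cko ratio of SSC (16429 genes).

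IP and input of the same number came from 1 batch of sorted cells, which pairs them. Their deviations correlated at r = 0.0179 to 0.239 in WT (8 populations) and 0.0403 to 0.0463 in Mettl3cko (3 populations). The main fits of IP against input and of their ratio left this pairing out. Only the replicate block used it. Input deviations of the same number correlated at -0.00264 to 0.00596 between genotypes and at -0.188 to 0.118 between WT populations. Since paired IP and input correlated as low as 0.0179, these values do not show whether numbers pair genotypes or populations.

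All 10 genes were named. Other pathway genes were named if among the 4 largest called stem against downstream differences of their list, or if called at adjusted p under 0.05 against Mettl3cko, and the 3 genes most alike were named for 5 members. One gene that this rule names is not reported here. The genes and lists were chosen with earlier results of these data known. Sequences came from GENCODE transcripts of GRCm38.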

Additional observations from a re-analysis of the deposited data

Results flagged for a closer look

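The IP to input ratio of Fgfr1 differed across the 8 WT populations (edgeR, adjusted p = 0.000706). Between stem and progenitor cells and downstream cells it differed for Fgfr1 (adjusted p = 1.43e-06), Fgf18 (0.000328) and Fgfr2 (0.000459), each with all 6 values above all 10, while the ratio of Fgfr3, the gene with the largest mRNA difference, had an interval around 0. In libraries labelled Mettl3cko the ratio passed the threshold of 0.05 before adjustment and not after it for Fgf7 in SSC (adjusted p = 0.229, and lost before adjustment with the replicate block), Spry2 in SSC (0.306) and Fgf18 in pBCSP (0.358). Each of these was picked out because a test of the ratio differed between groups. With 2 libraries per condition no library could be tested as an outlier.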

How the results depend on the processing

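No called result changed direction under the alternatives run. The uncalled stem against downstream ratios of Fgfr3 (0.06) and Fgf2 (0.11) became -0.11 and -0.05 with DESeq2 or size factors and -0.08 and -0.02 without a filter. The number of the 10 genes whose ratio differed across 8 populations was 1, and 4 with DESeq2, 5 without a filter, 4 with the replicate block and 1 to 4 with 1 library left out. For stem and progenitor against downstream ratios it was 3, and 5 with DESeq2, size factors, no filter or the replicate block and 3 to 5 with 1 library left out (5 without IP replicate 1 of BCSP, HEC or SSC). For single populations labelled Mettl3cko, 11 mRNA and 3 ratio calls became 0 and 0 with adjusted p, and 6 to 12 and 1 to 6 with 1 library left out (ratio: 1 without SSC WT input replicate 2, 6 without pBCSP Mettl3cko IP replicate 2). The mean ratio difference gave 0, 1 without a filter and 0 to 1 with 1 library left out. Other ranges with 1 library left out were 9 to 10 (mRNA across populations), 6 to 8 (stem against downstream), 18 to 20 (tagged), 8 to 10 (mean IP to input), 2 to 4 (mean labelled Mettl3cko mRNA), 0 to 0 (difference among populations) and 3 to 9 (order). Where that left 1 library of a condition, it was assumed to vary like the others.

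Of 65 calls of single genes, 64 kept their call with DESeq2, 63 with size factors, 64 without a filter and 62 with the replicate block, which ended the Fgf7 mRNA calls of labelled Mettl3cko pBCSP and BCSP and its SSC ratio call. With 1 library left out, 787 of 852 kept it, and of 33 calls in single populations 14 passed after adjustment. Over all genes, ratios across 8 populations gave 123 calls, and 1000 with DESeq2, 866 without a filter and 923 with the block. Ratios of stem against downstream gave 1227 and 1953 with DESeq2. The mean labelled Mettl3cko difference gave 1208 for mRNA, 2408 with DESeq2 and 2200 without a filter, and 803 for ratios, 2239 with DESeq2, 1411 without a filter and 204 with the block. With the block, SSC ratios gave 1183 in place of 2505 and BCSP ratios 1122 in place of 1814, and pBCSP mRNA gave 2244 in place of 1339 without a filter. Size factors moved the median stem against downstream ratio of all genes by -0.16. With 2 replicates, Fgf7, Spry1 and Fgf18 in IP rested on few counts in several libraries.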
